A study of Mus musculus with 6 samples.

Results

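The mammalian circadian clock was examined through 10 genes measured on 6 Affymetrix arrays of mouse NIH3T3 fibroblasts. The genes were Arntl (also called Bmal1), Clock, Per1, Per2, Per3, Cry1, Cry2, Nr1d1, Nr1d2 and Dbp, chosen by symbol, and they stood among 18193 genes that the array's annotation names from probe sets with 1 symbol. They were represented by 23 probe sets, a probe set being the group of array probes that reads 1 transcript. Per3 had 6 probe sets, Clock 4, Per2 3, Arntl, Nr1d2 and Dbp 2 each, and Per1, Cry1, Cry2 and Nr1d1 1 each.

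All 6 arrays came from clone M, a single NIH3T3 clone in which lac operator (lacO) DNA is inserted at multiple sites. In 3 tethered samples the inserted DNA lay at the nuclear periphery, and in 3 untethered samples it lay centrally. Both groups were grown in DMEM with serum on dishes to about the same confluency, and the labels give no synchronising treatment, time of harvest or further allele or agent for either group. Arrays were numbered 1 to 3 within each group, and the labels do not say what a number marks or whether the arrays came from separate cultures, so p-values measure the spread between these samples, which may be technical.

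The clock is a feedback loop of transcription. CLOCK and BMAL1, the product of Arntl, bind E-box elements and activate the Per and Cry genes, the REV-ERB genes Nr1d1 and Nr1d2, and the output factor Dbp. PER and CRY proteins then repress CLOCK and BMAL1, the REV-ERB proteins repress Arntl through ROR elements, and DBP activates genes with D-box elements, among them Per genes. Arntl therefore peaks at about the opposite time of day to Nr1d1 and Dbp in a running clock. Cultured fibroblasts carry such clocks in each cell. Serum, glucocorticoids and other stimuli bring the cells of a dish into step, and without them the cells drift apart and the level of the whole dish flattens. The arrays read RNA from whole dishes, so a change in every cell, a change in how many cells are in step and a change in the kinds of cells cannot be told apart, nor can fewer cells of a type and less RNA per cell.

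Median intensity per array lay between 482.5 and 490.8, and the listed fibroblast markers were bright, with all 8 tested and mean log2 intensities of their brightest probe sets from 10.89 to 14.55. Markers of other cell types passed the intensity filter, which removes dim probe sets, for 1 of 4 epithelial, 2 of 4 macrophage, 2 of 4 endothelial, 2 of 4 neural and 3 of 4 skeletal muscle genes. The brightest of these, the Epcam probe set 1447899_x_at, averaged 11.4, above the lowest fibroblast marker, while the other Epcam probe set, 1416579_a_at, averaged 7.87 and lay below the filter. Both arrays numbered 1 stood apart from the other 4 across the array. In 35.5% of 22518 tested probe sets both lay outside the range of the other 4, below it in 23.3% and above it in 12.2%. For some of the genes compared between tethered and untethered cells, values without these arrays are given as well.

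Promoter sequences show which clock elements the members share. RefSeq windows of 300 bases (GRCm38.p6, 250 before and 50 after the start) were found for 9 of 10 members, in 13 windows. Both strands were searched for the E-box CACGTG, its variant CACGTT, the D-box TTATGTAA, its variant TTATGCAA, the ROR element core TAGGTCA and the cAMP response element TGACGTCA. No matches overlapped in the windows of members. The E-box stood in the upstream window of Per1 and in that of Cry1 (7.15% of 32817 windows of all genes). The variant CACGTT stood in those of Cry1, Cry2 and Nr1d1 (4.69%) and the D-box in that of Per3 (0.935%). The variant D-box stood in the upstream window of Per1 (0.744%) and the ROR core in 1 window of Arntl (2.61%). The downstream window of Per1 held no match. The cAMP response element was in no member window (1.79% of all windows). The windows of Dbp, Nr1d2 and Clock held none of these letters. Windows of Per1, Nr1d1, Per3 and Arntl are shown because they hold the E-box, its variant, the D-box and the ROR core of the loop, with each match in capitals.
Per1, upstream start, chr11:69098699-69098998, plus strand, E-box at position -166 and variant D-box at -24 from the start: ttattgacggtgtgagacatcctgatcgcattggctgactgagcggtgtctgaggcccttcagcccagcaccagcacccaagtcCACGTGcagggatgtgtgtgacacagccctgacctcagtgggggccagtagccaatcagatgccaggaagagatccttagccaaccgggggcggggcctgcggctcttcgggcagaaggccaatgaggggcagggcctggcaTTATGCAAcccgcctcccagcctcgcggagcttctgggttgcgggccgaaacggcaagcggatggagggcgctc
Nr1d1, chr11:98775328-98775627, minus strand, E-box variant (read on the other strand) at -28: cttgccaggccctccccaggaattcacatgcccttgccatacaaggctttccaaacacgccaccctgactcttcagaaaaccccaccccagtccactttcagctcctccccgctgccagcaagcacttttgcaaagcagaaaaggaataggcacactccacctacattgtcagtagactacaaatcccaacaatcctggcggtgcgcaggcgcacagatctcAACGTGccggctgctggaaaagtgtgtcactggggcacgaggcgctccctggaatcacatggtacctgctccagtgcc
Per3, chr4:151044616-151044915, minus strand, D-boxes at -205 and -158: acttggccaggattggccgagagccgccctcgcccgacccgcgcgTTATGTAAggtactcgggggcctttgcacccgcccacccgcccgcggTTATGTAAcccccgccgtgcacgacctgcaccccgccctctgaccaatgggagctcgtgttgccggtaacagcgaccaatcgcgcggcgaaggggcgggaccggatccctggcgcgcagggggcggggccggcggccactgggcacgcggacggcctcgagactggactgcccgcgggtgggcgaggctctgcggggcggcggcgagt
Arntl, downstream start, chr7:113207261-113207560, plus strand, ROR core at 31: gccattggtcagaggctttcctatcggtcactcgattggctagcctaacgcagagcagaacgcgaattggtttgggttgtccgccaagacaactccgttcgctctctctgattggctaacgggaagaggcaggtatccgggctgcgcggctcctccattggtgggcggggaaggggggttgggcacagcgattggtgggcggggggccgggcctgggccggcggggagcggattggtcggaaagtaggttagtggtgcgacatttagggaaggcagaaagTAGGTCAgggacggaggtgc
A match describes the letters of the window and does not show that a factor binds there.

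The first question was whether clock gene levels differed between tethered and untethered cells. No clock probe set passed the test. The activators and Cry2 had values above 0, the REV-ERB genes and Per1 below 0 on their brightest probe sets, and the groups overlapped in each of the 13 tested clock probe sets, where they did not overlap in 8.16% of all tested probe sets. Among the tested probe sets the value with the largest size belonged to Nr1d2 1416958_at, at -0.53 on the log2 scale with a standard error (SE) of 0.484. Cry2 followed, at 0.28 with an SE of 0.267. Limma's test over all arrays called 0 of the 13 clock probe sets that passed the filter (mean log2 intensity above 8.93), at an adjusted p of 0.999 for each, where it called 0% of 22518 probe sets. At an unadjusted p under 0.05 there were 0 clock probe sets, where 2.38% of all tested probe sets lay there. With the arrays numbered 1 left out of both groups the count after adjustment was again 0. Nr1d2 1416958_at then stood at -0.74 (limma, unadjusted p = 0.01) and Nr1d1 at -0.29 (limma, unadjusted p = 0.0315). The count of 0 at the unadjusted threshold therefore did not hold there. Per3 1421086_at stood at 0.22, Arntl 1425099_a_at at 0.06 and Per1 at -0.09 without the same arrays. Nor did that count hold in some other settings. With the replicate number as a block, Nr1d2 1416958_at had an unadjusted p of 0.0348 (limma). Without tethered replicate 1, Nr1d2 1416958_at and Nr1d1 had 0.0229 and 0.0145 (limma, unadjusted p). Without untethered replicate 2, Cry2 had 0.00359 (limma, unadjusted p).

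Arntl, whose product BMAL1 is the partner of CLOCK, had intensities of 947, 948 and 933 in tethered replicates 1, 2 and 3, against 784, 875 and 933 in untethered replicates 1, 2 and 3 (probe set 1425099_a_at). The 3 tethered arrays lay close together and untethered replicate 1 was the lowest of all. On the log2 scale tethered cells averaged 9.88 ± 0.013 and untethered cells 9.75 ± 0.13 (SD, n = 3 each), a difference of 0.13 with a standard error of 0.0817. The other Arntl probe set, 1457740_at, lay between 679 and 741 in tethered cells and between 697 and 701 in untethered cells, which was the smallest spread of any clock probe set.

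Clock, which encodes the partner of BMAL1, had 4 probe sets. The brightest, 1418660_at, read 720, 828 and 753 in tethered cells, against 724, 727 and 712 in untethered cells, a log2 difference of 0.09 (SE 0.0739). The probe set 1418659_at read 596, 671 and 727 in tethered cells, against 527, 721 and 741 in untethered cells. Here replicate 1 was the lowest array of each group, while the group difference was 0.02 (SE 0.155). The remaining Clock probe sets, 1435775_at and 1439314_at, lay below the filter, the first only just, with a mean log2 intensity of 8.92.

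The Per genes encode repressors, and the Per1 transcript responds fast to serum and glucocorticoids. Per1 read 916, 812 and 759 in tethered cells, against 1164, 901 and 771 in untethered cells. Its highest array in each group was replicate 1, and the difference between groups was -0.17 (SE 0.165). The range of that difference with 1 array left out ran from -0.31 to -0.01. Per2 had all 3 probe sets below the filter. On the brightest of them, 1457350_at, it read 442, 412 and 413 in tethered cells, against 454, 453 and 409 in untethered cells. Another Per2 probe set, 1417603_at, read 313, 316 and 324 in tethered cells, against 295, 287 and 267 in untethered cells, without overlap. It was 1 of 2 clock probe sets of 23 whose groups did not overlap, the other being a Per3 probe set below the filter, 1441445_at (419 to 427 in tethered cells and 444 to 474 in untethered cells). Of all 45037 probe sets, with no filter, 5.36% had tethered arrays wholly higher and 4.32% wholly lower.

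Per3, the third Per gene, read 885, 1041 and 996 in tethered cells, against 978, 830 and 916 in untethered cells on its brightest probe set, 1421086_at. Replicate 1 was the lowest tethered array and the highest untethered one, and the groups differed by 0.10 (SE 0.0974). On 1421087_at and 1460662_at the differences were -0.04 (SE 0.113) and 0.06 (SE 0.07), so the 3 tested Per3 probe sets did not share a direction. The other 3 lay below the filter.

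The cryptochromes are the repressors that act with PER. Cry2 read 1304, 1083 and 1211 in tethered cells, against 840, 1513 and 757 in untethered cells. The untethered arrays held both the highest and the lowest values, a 2.00-fold range, with untethered replicate 2 high and the other two low, while the tethered arrays lay within that range. With 1 array left out the difference between groups ran from 0.08, without untethered replicate 3, to 0.58, without untethered replicate 2, and it was 0.10 without both arrays numbered 1. The group means were 10.22 ± 0.13 and 9.95 ± 0.54 on the log2 scale in tethered and untethered cells (SD, n = 3 each). Cry1, on its 1 probe set, lay below the filter and read 321, 154 and 261 in tethered cells, against 229, 340 and 264 in untethered cells. Tethered replicate 2 was the lowest array, the reverse of the order within the untethered group, and Cry1 was not tested.

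Nr1d1 and Nr1d2 encode REV-ERB-alpha and REV-ERB-beta, the repressors of Arntl. Nr1d1 read 1504, 1108 and 1198 in tethered cells, against 1537, 1467 and 1346 in untethered cells. Tethered replicates 2 and 3 were the lowest 2 arrays, and the group difference was -0.20 (SE 0.129), or -0.33 without tethered replicate 1 and -0.11 without tethered replicate 2. Nr1d2, on the brighter probe set 1416958_at, read 1706, 599 and 625 in tethered cells, against 1848, 1235 and 847 in untethered cells. Replicate 1 was the highest array of each group, and the 3.08-fold range over the 6 arrays was the widest of any clock probe set and wider than that of 98.2% of tested probe sets. With 1 array left out, the difference between groups ran from -1.03, without tethered replicate 1, to -0.25, without untethered replicate 1. The second Nr1d2 probe set, 1416959_at, read 736, 671 and 647 in tethered cells, against 766, 603 and 650 in untethered cells, a range of 1.27-fold only. Its group difference was 0.03 (SE 0.109).

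Dbp encodes a PAR bZIP factor, the output of the loop that drives D-box genes. Its probe set 1418174_at read 871, 508 and 584 in tethered cells, against 900, 667 and 516 in untethered cells. Replicate 1 was again the highest array of each group, and the groups differed by -0.09 (SE 0.274). The second probe set, 1438211_s_at, lay below the filter and read 534, 212 and 206 in tethered cells, against 610, 408 and 249 in untethered cells. Its log2 difference between groups was -0.47, with overlap. Both Dbp probe sets put the 6 arrays in nearly the same order, with both arrays numbered 1 on top and untethered replicate 2 next.

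**Figure D1:**
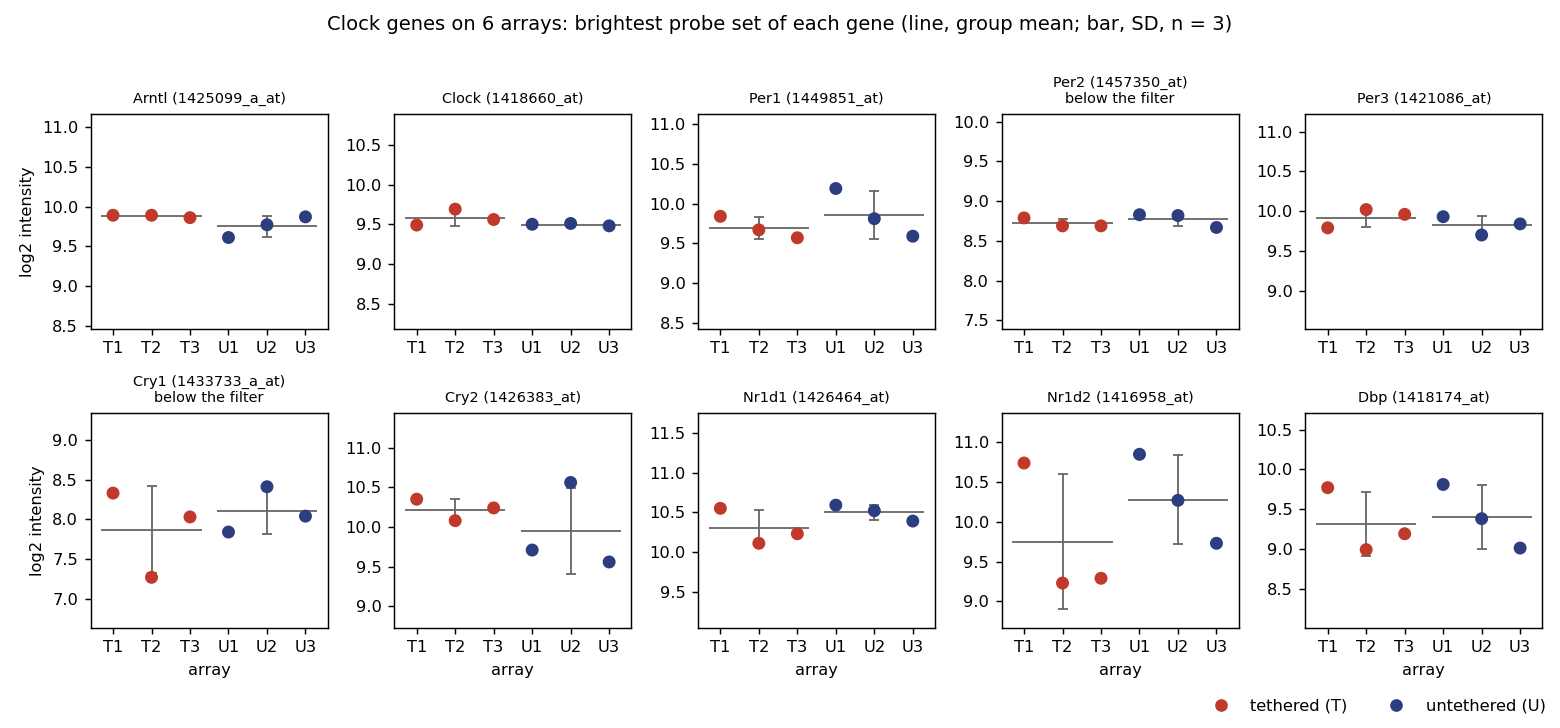
Log2 intensity of the brightest probe set of each clock gene on the 3 tethered (T1 to T3) and 3 untethered (U1 to U3) arrays, with the group mean as a line and the SD as a bar. The axes span the same log2 width in every panel: Nr1d2 and Dbp are highest on T1 and U1, while Arntl and Clock stay within narrow bands.

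**Figure D2:**
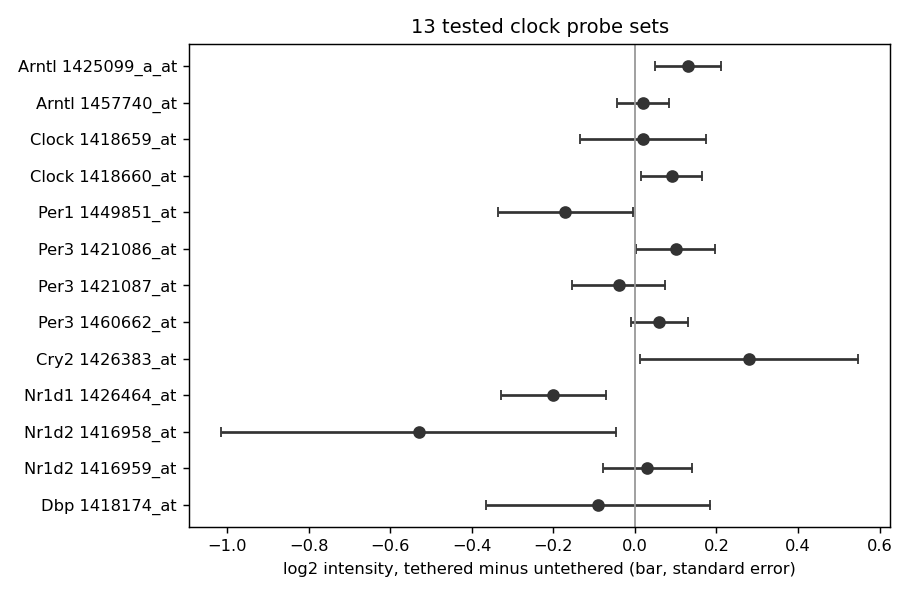
Difference in log2 intensity, tethered minus untethered, of the 13 tested clock probe sets, with the standard error from limma as a bar. Nr1d2 1416958_at lies farthest from 0, at -0.53, with the widest bar, and none of the probe sets passed the adjusted threshold.

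The second question was whether the cultures differed in clock state along the replicate numbers. Of the CLOCK and BMAL1 targets, Dbp, both REV-ERB genes, Per1 and 1 Per3 probe set had higher values in both arrays numbered 1 than in the other 4, and 1 Clock probe set had lower ones, but no clock probe set passed the test. Per2, Cry1 and Cry2, which are also targets, did not have both arrays numbered 1 outside the others, with differences of 0.09, 0.15 and -0.08 on their brightest probe sets. Arntl did not follow in the opposite direction on both arrays. Nr1d2 (1416958_at) averaged 10.79 on the log2 scale in arrays numbered 1 and 9.63 in the others, a difference of 1.17. Dbp averaged 9.79 and 9.14, a difference of 0.65, and on its dimmer probe set the difference was 1.15. Per1 differed by 0.35, Nr1d1 by 0.26, the second Nr1d2 probe set by 0.22 and Clock 1418659_at by -0.35, while Arntl 1425099_a_at differed by -0.10, Clock 1418660_at by -0.06 and Per3 1421086_at by -0.02.

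A limma F-test over the 3 numbers, with group in the model, called 0 of the 13 tested clock probe sets, where it called 5.16% of 22518 probe sets. The adjusted p was 0.0689 for Nr1d2 1416958_at, 0.104 for Dbp 1418174_at, 0.152 for Per1 and 0.155 for Clock 1418659_at, and 0.299 or above for the rest. With 1 array left out the adjusted p ran from 0.0168 to 0.26 for Nr1d2 1416958_at and from 0.0287 to 0.277 for Dbp 1418174_at. At an unadjusted p under 0.05 stood 4 of the 13, where 22.6% of all tested probe sets did. The 0 depended on the setting. With quantile normalization Nr1d2 1416958_at passed (adjusted p = 0.0422, limma). It also passed without untethered replicate 1 (adjusted p = 0.0277, limma). Without tethered replicate 2, Nr1d2, Dbp and Cry2 passed (adjusted p = 0.0184, 0.0342 and 0.0216, limma). Without untethered replicate 2, Nr1d2 and Dbp passed (adjusted p = 0.0168 and 0.0287, limma).

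Of the 23 clock probe sets, 7 had both arrays numbered 1 above the other 4 and 1 had both below, where 10.9% and 16.8% of all 45037 probe sets did. The 7 belonged to Per1, Per3 (1460662_at), Nr1d1, Nr1d2 (both) and Dbp (both). The 1 below was Clock 1418659_at. That the arrays numbered 1 stood apart was known when this count was chosen. The arrays also differed in RNA measures. For the transferrin receptor control, whose 5' probes were set against its 3' probes as a gauge of RNA integrity, the log2 difference was -2.09, -1.67 and -1.55 in tethered replicates 1, 2 and 3, against -2.81, -3.07 and -1.52 in untethered replicates 1, 2 and 3. Both arrays numbered 1 and untethered replicate 2 had the lowest such values and also the highest Nr1d2 1416958_at, Dbp and Nr1d1. Both arrays numbered 1 lay below the other 4 for 5 of 8 fibroblast marker genes, where they did in 23.3% of all tested probe sets. Pdgfrb and Fn1 were higher in arrays numbered 1 on average, by 0.35 and 0.06 on their brightest probe sets. The mean log2 intensity over the fibroblast list was 12.66, 13.14 and 13.11 in tethered cells and 12.99, 13.26 and 13.22 in untethered cells. The part of the RNA measures or of the fibroblast markers in the clock gene differences was not tested.

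**Figure D3:**
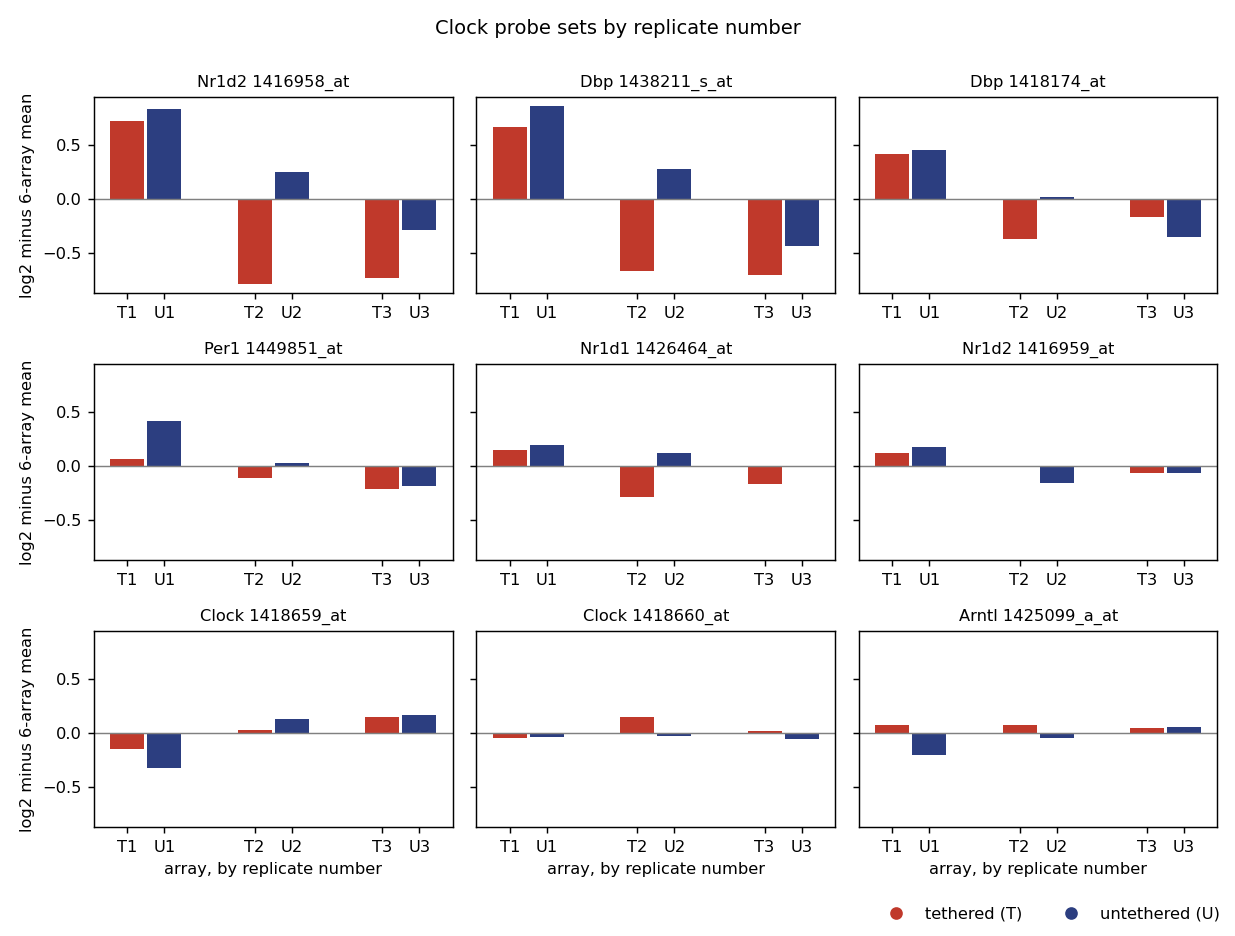
Deviation of log2 intensity from the mean of 6 arrays for clock probe sets chosen after their values were seen, with arrays set side by side by replicate number (red, tethered; blue, untethered). Bars of Nr1d2 1416958_at and of both Dbp probe sets are above 0 on T1 and U1 and below 0 on T2, T3 and U3, while those of Clock 1418660_at and Arntl are short.

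A shift of clock phase would move the CLOCK and BMAL1 targets against the genes under REV-ERB and ROR control. The first arm was taken as the mean deviation of Per1, Per2, Per3, Nr1d1, Nr1d2 and Dbp, and the second as that of Arntl, Clock and Cry1, each gene by its brightest probe set. Cry1 is also a CLOCK and BMAL1 target, so the arms do not cleanly separate targets from the other genes. The target arm stood at 0.22, -0.24 and -0.21 in tethered replicates 1, 2 and 3 and at 0.34, 0.06 and -0.16 in untethered replicates 1, 2 and 3. The second arm stood at 0.12, -0.16 and 0.04 in tethered and at -0.13, 0.12 and 0.02 in untethered replicates. Signs of the arms were opposite in tethered replicate 3 and in untethered replicates 1 and 3, and the same in the other arrays. Cry1, whose probe set lay below the filter, had the widest deviations of the second arm, at 0.34, -0.72 and 0.04 in tethered and -0.15, 0.42 and 0.06 in untethered replicates.

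The difference of the arms, target minus second, was 0.09, -0.08 and -0.25 in tethered replicates 1, 2 and 3, against 0.47, -0.06 and -0.17 in untethered replicates 1, 2 and 3. Untethered replicate 1 had the highest value and tethered replicate 3 the lowest, and the groups overlapped, with means of -0.08 ± 0.17 in tethered and 0.08 ± 0.34 in untethered cells (SD, n = 3 each). Arrays numbered 1 were the highest of their group. No p-value is given for this score, since its members were chosen with earlier results known. Single harvests with no time of day do not give a phase in hours.

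**Figure D4:**
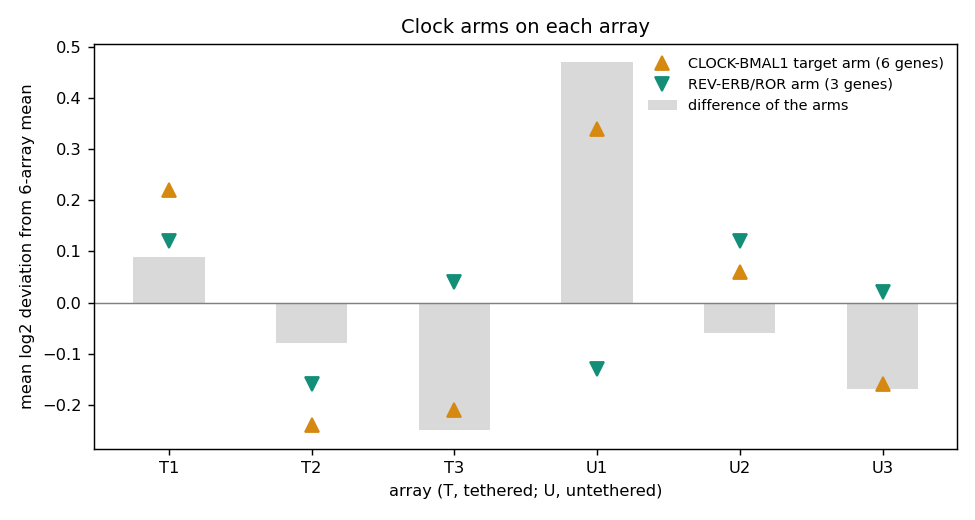
Mean log2 deviation from the 6-array mean of the CLOCK-BMAL1 target arm (upward triangles), of the REV-ERB/ROR arm (downward triangles) and their difference (grey bars) on each array. The difference is highest on untethered replicate 1, at 0.47, and lowest on tethered replicate 3, at -0.25.

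Further clock factors, the parallel activators, repressors and output factors of the loop, were represented by 11 of 12 listed genes, 9 of them tested. Between tethered and untethered cells 0 passed limma's test, and the median of the 11 differences was 0.01, where the median of all tested probe sets was -0.016. The smallest unadjusted p-values belonged to Hlf, a PAR bZIP factor related to Dbp, at -0.20 (SE 0.0823), to Bhlhe40, an E-box repressor, at -0.73 (SE 0.373, and from -1.08 to -0.44 with 1 array left out and -0.70 without both arrays numbered 1), to Arntl2, a paralogue of Arntl, at 0.12 (SE 0.0725), and to Ciart, a repressor of CLOCK and BMAL1, at 0.08 (SE 0.0562). Npas2, a paralogue of Clock that REV-ERB proteins repress, lay below the filter, with log2 intensities of 8.57, 8.63 and 8.65 in tethered cells, against 8.49, 8.48 and 8.50 in untethered cells.

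Over the replicate numbers 1 of these factors passed. Timeless, which encodes a replication fork protein that also binds clock proteins, was lower in arrays numbered 1, at 9.26 in tethered replicate 1 and 9.94 and 10.18 in the other tethered arrays, and at 9.37 in untethered replicate 1 and 10.02 and 10.13 in the other untethered arrays (limma, adjusted p = 0.024). The call was lost without tethered replicate 1 (adjusted p = 0.0803), tethered replicate 3 (0.176) or untethered replicate 3 (0.143). Nfil3, the repressor that competes with DBP for D-boxes and is itself repressed by REV-ERB proteins, averaged 10.07 in arrays numbered 1 and 9.15 in the others (limma, adjusted p = 0.0915, and 0.0102 without untethered replicate 1). It lay on the same side as Dbp and Nr1d2. Bhlhe40 was 0.82 higher in arrays numbered 1 (limma, adjusted p = 0.103, and 0.0371 and 0.0363 without tethered or untethered replicate 2), and Tef, another PAR bZIP factor, 0.22 higher (0.229).

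Kinases and ubiquitin ligases set the stability of PER and CRY proteins. Of 9 listed genes 8 were represented and 7 tested, and 0 passed in either comparison, with a median of -0.02 in tethered minus untethered cells. Gsk3b, a kinase, stood at 0.22 (SE 0.0864) in tethered minus untethered cells on its brightest probe set, without overlap of the groups. Its other tested probe sets stood at -0.31 (1454958_at), -0.18 (1451020_at) and -0.01 (1437001_at), with overlap, so they did not share a direction. Btrc and Fbxw11, the F-box proteins that target PER, both stood at -0.12 (SE 0.0937 and 0.157) on their brightest probe sets, while another Fbxw11 probe set, 1425461_at, stood at 0.51. Csnk1d, a PER kinase, stood at 0.06 (SE 0.0999). Between arrays numbered 1 and the others, the differences of the 4 with the smallest p, Csnk2a1, Btrc, Gsk3b and Fbxw11, lay between -0.22 and -0.05 on their brightest probe sets, while Gsk3b 1454958_at stood at 0.59.

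Clock-controlled outputs numbered 9 of 10 listed genes, 8 tested, and 0 passed between tethered and untethered cells. The median difference was -0.18, where that of all tested probe sets was -0.016, and 8 of the 9 lay below 0. All 8 fibroblast marker genes also lay below 0, with a median of -0.09. Of the 11 further clock factors, 5 lay below 0 and 6 above. Klf10, a growth-factor-responsive zinc-finger gene with clock input, stood at -1.11 (SE 0.541), with untethered replicate 1 at 3560 and the other 5 arrays between 510 and 1343. It was -0.55 without that array and -0.27 without both arrays numbered 1. Cdkn1a, a cell cycle inhibitor, stood at -0.18 (SE 0.0984), Avpr1a, a vasopressin receptor, at -0.13 (SE 0.0995) and Nampt, the rate-limiting enzyme of NAD salvage, at -0.21 (SE 0.209, and from -0.43 to -0.02 with 1 array left out). Over the numbers 1 passed. Noct, which encodes nocturnin, read 8.91 in tethered replicate 1 and 9.66 and 10.21 in the other tethered arrays, and 9.44 in untethered replicate 1 and 9.95 and 10.31 in the other untethered arrays (limma, adjusted p = 0.032). This call was lost without tethered replicate 1 (0.0551), tethered replicate 3 (0.189) or untethered replicate 3 (0.133), and with no filter (0.0581) or no group term (0.052). Wee1, a mitotic inhibitor kinase with E-boxes in its mouse promoter, was 0.25 lower in arrays numbered 1, at 11.00 against 11.25 (limma, adjusted p = 0.172). Lpin1, a phosphatidate phosphatase, was 1.39 higher (limma, adjusted p = 0.213, and 0.00911 without untethered replicate 1), and Nampt 0.41 higher (0.265).

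Genes of the signals that reset fibroblast clocks were represented by 11 of 12 listed genes, 10 tested. In tethered minus untethered cells 8 values lay below 0 and 2 above, with a median of -0.35. All 8 fibroblast marker genes lay below 0 in the same comparison. None passed limma's test. Of the 22 tested probe sets of the list, 5 had an unadjusted p under 0.05 (limma), where 2.38% of all tested probe sets did. Fos was among the 5 but passed the filter, at 8.93, only through untethered arrays. Its log2 intensities were 8.18, 8.63 and 8.7 in tethered cells, against 11.15, 10.0 and 8.9 in untethered cells. Without untethered replicate 1 it lay below the filter and was not tested. The immediate early genes Fos, Junb and Egr1 stood at -1.52 (SE 0.546), -1.28 (SE 0.472) and -2.15 (SE 0.872), each without overlap of the groups. For the glucocorticoid receptor gene Nr3c1 the tested probe sets 1460303_at and 1421867_at gave -0.31 (SE 0.0668) and -0.34 (SE 0.0683), also without overlap. Both were among the 5. Nr3c1 probe sets below the filter did not share a direction. There 1457635_s_at gave -0.79 and 1431378_at 0.32, both without overlap, while 1421866_at gave 0.15 and 1453860_s_at 0.08, with overlap. Egr1 read 320, 1860 and 1825 in tethered cells, against 9295, 5300 and 1946 in untethered cells, so untethered replicate 3 lay near the tethered arrays numbered 2 and 3. Without both arrays numbered 1 the differences were -0.79 for Fos, -0.59 for Junb and -0.80 for Egr1. Leaving out 1 array brought Egr1 to -1.31 (without tethered replicate 1) and Junb to -0.76 (without untethered replicate 1). RNA measures also differed between the arrays. The log2 signal of the 18S rRNA control was 10.94, 10.48 and 10.79 in tethered replicates 1, 2 and 3, against 12.06, 12.16 and 11.15 in untethered replicates 1, 2 and 3. Every untethered array thus lay above every tethered one, with untethered replicates 1 and 2 the highest. The 5' minus 3' difference of the actin control was -0.29, -0.10 and -0.12 in tethered and -0.31, -0.56 and -0.15 in untethered replicates. It was lowest in untethered replicate 2, while untethered replicate 1 lay close to tethered replicate 1. The part of these RNA measures in the group differences was not tested. The order of the arrays for these genes differed from that of Dbp and Nr1d2: tethered replicate 1 was the lowest array for Fos (8.18), Junb (9.62) and Egr1 (8.32), while it was the second highest for Nr1d2 and Dbp. Untethered replicate 1 was the highest of all arrays for Per1, Fos, Junb and Egr1 alike.

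Glucocorticoid-induced genes did not move as 1 block over the numbers. Tsc22d3, which encodes GILZ, was 1.18 higher in arrays numbered 1 (limma, adjusted p = 0.0671, with 0.0451 after quantile normalization, 0.0337 with no group term, and 0.0217, 0.0185 and 0.0201 without tethered replicate 2, untethered replicate 1 or untethered replicate 2). Klf9, a zinc-finger gene with clock and glucocorticoid input, was 0.80 higher (limma, adjusted p = 0.131, and 0.0369, 0.0309 and 0.0346 without the same 3 arrays). Fkbp5, a glucocorticoid receptor co-chaperone, was 0.50 lower, at 10.72 against 11.22 (limma, adjusted p = 0.0454), a call that was lost under quantile normalization (0.065), with no filter (0.0762) and without any of 4 arrays (tethered replicate 1, 0.152; tethered replicate 3, 0.25; untethered replicate 1, 0.157; untethered replicate 3, 0.242). Sgk1, a serum- and glucocorticoid-induced kinase, was 1.39 lower (limma, adjusted p = 0.123, and 0.00612 without untethered replicate 1).

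**Figure D5:**
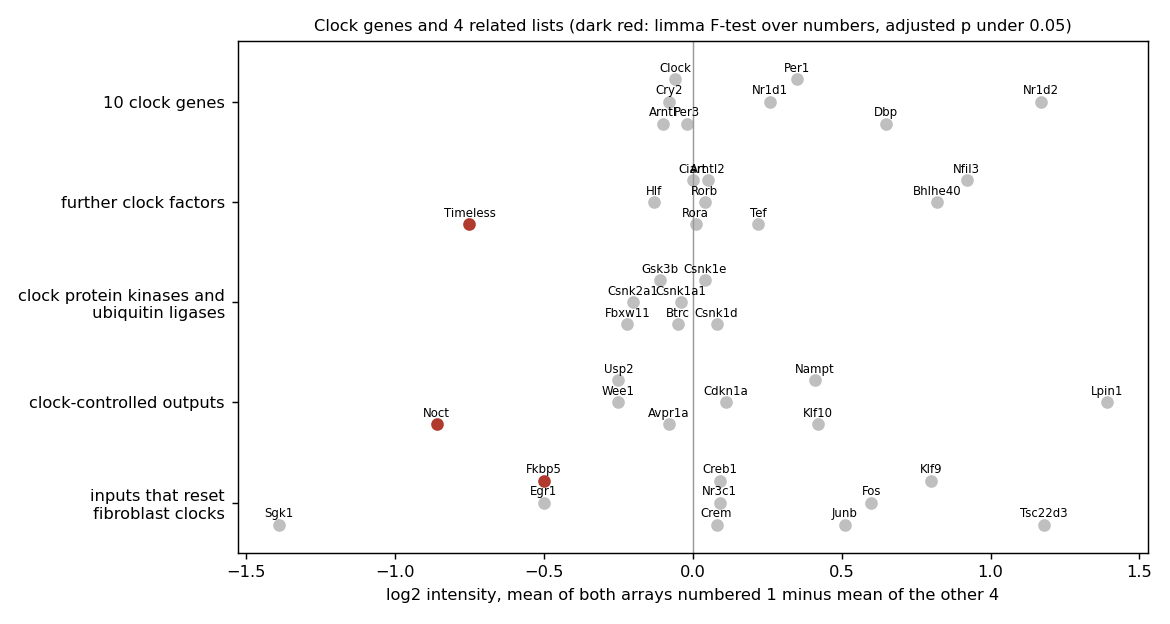
Mean log2 intensity of both arrays numbered 1 minus that of the other 4 arrays, for the tested genes among the 10 clock genes and 4 related lists, by brightest probe set (vertical offsets within a row only separate the names). Timeless, Noct and Fkbp5, in dark red, passed the F-test over numbers, all below 0, while Nr1d2, Nfil3, Lpin1 and Tsc22d3 lie farthest above 0 and did not pass. Of all 1161 probe sets that passed, 1073 had a lower mean in arrays numbered 1 and 88 a higher one.

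The genes whose array pattern was most like that of the 2 clock genes with the widest ranges on their brightest probe sets were found by the root mean square difference of centred log2 values over the 6 arrays. For Nr1d2 they were Armcx1 (0.095), Klf9 on the probe set 1422264_s_at (0.1) and Hbp1, an HMG-box repressor (0.113). Armcx1 deviated by 0.72, -0.85 and -0.79 in tethered and by 0.72, 0.30 and -0.11 in untethered replicates 1, 2 and 3. For Cry1, below the filter itself, they were Selenos (0.073), Ccdc22 (0.118) and Idi1, an isoprenoid enzyme (0.124). With only 6 arrays and all tested genes to choose from, near matches describe these libraries only.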

How the data were processed

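Biotin-labelled total RNA of 6 samples was read on Affymetrix arrays, per the labels. The authors deposited linear intensities, with 1 value for each probe set on each array. Their software and scaling are stated in neither the labels nor the table. No detection calls were used. Precision is limited by the number of arrays. The table held 45101 probe sets, and 64 of them, hybridisation and RNA controls, were not tested. Of the remaining 45037, the platform annotation gave 34945 a single symbol, 932 several and 9160 none, and 99.4% of the identifiers of the first kind were found in the RefSeq gene table of GRCm38.p6. Probe sets with several symbols named no gene.

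Log2 was taken after raising intensities under 16 to that value. The brighter 22518 probe sets, with a mean above the median, were tested with limma 3.58.1 in R 4.3.3, two-sided, Benjamini-Hochberg adjusted over all of them and called under 0.05. Tethered was compared with untethered without covariates, and the 3 replicate numbers by an F-test with group in the model. The brightest probe set stood for a gene in lists and arms. Up to 4 genes per list were named by smallest p in each comparison. The members, lists and tests were chosen with earlier results of these data known. Some listed genes are not reported here. Motifs were searched in RefSeq promoter windows. The fits were tested on simulated data. Alternatives were quantile normalization, median centring, log2(value + 50), no filter, arrays left out and the replicate number as a block.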

Additional observations from a re-analysis of the deposited data

How the results depend on the processing

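Between tethered and untethered cells the count of called clock probe sets and of all called probe sets was 0 under every alternative run (quantile normalization, median centring, log2(value + 50), no filter, the replicate number as a block, each array left out, and both arrays numbered 1 left out). At an unadjusted p under 0.05 limma had 536 probe sets, of which 0 were clock probe sets. With the replicate block the count called after adjustment was 0 for clock probe sets and 0 for all probe sets, and the block changed no other call. Before adjustment, Nr1d2 1416958_at lay under 0.05 with the block (limma, unadjusted p = 0.0348). Same-numbered arrays deviated together from their group means at correlations of 0.71 for number 1, 0.07 for number 2 and 0.71 for number 3, so the numbers were not taken as pairs. Not every array correlated best with its own number. Over the replicate numbers the count of clock probe sets, 0 in the analysis as reported, was 1 with quantile normalization and ran from 0 to 3 with 1 array left out. The count of all probe sets, 1161, was 645 with no filter and ran from 0 (without tethered or untethered replicate 3) to 2979 (without tethered replicate 2) with 1 array left out. It was 561 without tethered replicate 1 and 2588 without untethered replicate 2. The cause was not tested. The difference between groups changed sign, without passing the test, for Per3 1421087_at (-0.13 to 0.06 with 1 array left out, and 0.07 without both arrays numbered 1), Arntl 1457740_at (-0.01 to 0.06), Clock 1418659_at (-0.14 to 0.10, and -0.06 without both arrays numbered 1), Nr1d2 1416959_at (-0.04 to 0.13), Dbp 1418174_at (-0.31 to 0.12) and Csnk1d 1456727_a_at (-0.04 to 0.13). The difference of the arms moved by less than its group's SD under each alternative run. Those SDs, 0.17 in tethered and 0.34 in untethered cells, were larger than most of the scores, so this limit was wide. With 1 array left out the score changed sign in tethered replicate 2 (-0.13 to 0.01) and untethered replicate 2 (-0.11 to 0.03).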
